A study of Mus musculus with 25 samples.

Results

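The claudins, the cadherins and their junction partners occludin (Ocln) and cingulin (Cgn) were followed in mouse podocyte RNA across 2 genotypes and 3 ages. Members were all genes whose symbol is Cldn or Cdh followed by a number, together with Ocln and Cgn, each read on the probe set with the highest mean among those assigned to that gene alone. They came to 41 of the 17097 genes on the array: 20 claudins, 19 cadherins and the 2 partners. Of these, 24 lay above the limit set for dim genes (a mean of 4.60 on the log2 scale, the lowest 30% of genes) and were tested: 11 claudins, 11 cadherins and both partners. A further 7 annotated genes with such symbols had no probe set assigned to them alone and could not be followed. They were Cdh12, Cdh18, Cdh19, Cdh24, Cldn17, Cldn20 and Cldn24.

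Claudins are small membrane proteins that form the paracellular seal, or in some cases ion and water pores, of tight junctions, and occludin and cingulin lie in the same junctions. Cadherins hold neighbouring cells together through calcium-dependent contacts that are tied to actin by catenins. In the kidney each stretch of the nephron has its own set of claudins, and the podocyte, whose foot processes are joined by the slit diaphragm, loses its tight junctions as it matures.

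The study measured polysomal RNA taken by translating ribosome affinity purification (TRAP), in which ribosomes carrying a tagged L10a protein are pulled from a tissue together with the messages they are reading. All mice carried Tg:Col1a1-eGFPL10a, an eGFP and L10a fusion under the collagen1α1 promoter/enhancer, on a C57/129sv background; the tag marks the cells in which that promoter is active. Wild-type (WT) mice were set against mice with the Actn4tm1.1Plk knock-in allele (KI), which came from crossing the transgenic line with Actn4+/tm1.1Plk mice; Actn4 encodes an actin-crosslinking alpha-actinin of podocyte foot processes, and the labels do not settle whether KI mice had 1 or 2 such alleles. There were 4 WT and 4 KI arrays at 2 weeks (labelled P14), 5 WT and 4 KI at 5 weeks (P35), and 4 WT and 4 KI at 44 weeks (labelled P300), 25 arrays in all. Array numbers below are those of the sample titles. The labels give sex as unknown and do not say that each array was a separate animal, so p-values here reflect the scatter among these arrays, some of which may be technical.

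The podocyte markers were high on every array: Nphs1 lay between 9.53 and 11.49, Podxl between 12.53 and 13.0 and Synpo between 12.1 and 12.7 (log2). RNA of other nephron parts was also present, with the thick ascending limb gene Umod between 9.77 and 12.02 and the endothelial gene Kdr between 6.1 and 8.26. Emcn and Pecam1, also endothelial, lay between 4.71 and 7.92 and between 4.33 and 6.44, the latter in part below the limit for dim genes. The mean of 55 tubule markers was 0.54 log2 higher in KI than in WT at 2 weeks, 0.72 higher at 5 weeks and 0.27 higher at 44 weeks, and the mean of 23 endothelial markers was 0.32, 0.70 and 0.33 higher. The mean of 19 leukocyte markers was 0.17, 0.47 and 0.20 higher, and that of 15 mesangial and smooth muscle markers differed by -0.05, 0.57 and 0.28. Podocyte markers (26 genes) differed by -0.17, -0.12 and -0.13, and parietal cell markers (11 genes) by 0.17, 0.08 and 0.20. At 5 weeks the KI arrays lay above all WT arrays in the tubule, endothelial and leukocyte means (4.64 to 5.27 in WT and 5.39 to 5.54 in KI for the last). The exact permutation p was then 0.0159 (two-sided), and 0.127 after adjustment over 24 list comparisons. For 4 against 4 arrays the smallest such p is 0.0286. With so few arrays a pass after adjustment was hard to reach, so this test says little of whether the lists differed. Gene by gene with limma at 5 weeks, 12 of 31 loop and distal tubule markers were higher in KI, as were 4 of 23 proximal tubule, 8 of 21 endothelial, 6 of 14 leukocyte and 4 of 15 mesangial and smooth muscle markers, with 0 lower in these 5 lists. Of 24 podocyte markers 2 were higher and 6 lower, and of 10 parietal cell markers 1 and 3. Of all genes tested, 14.3% were called higher and 7.75% lower at that age, and the proximal tubule share was near the former. The part of the leukocyte, mesangial, podocyte and parietal lists in the members' differences was not tested. Fits with the tubule or endothelial mean of each array as a covariate are given below. Because both means separated the genotypes fully at 5 weeks, those fits cannot tell a genotype difference from a difference in tubule or endothelial RNA. Y-linked messages averaged above 6 on the log2 scale on 4 of 4 WT and 1 of 4 KI arrays at 2 weeks, on 2 of 5 and 3 of 4 at 5 weeks, and on 1 of 4 and 3 of 4 at 44 weeks. Actn4 had no probe set assigned to it alone, which left no check of genotype on that gene. In bulk RNA of this kind fewer cells of a type and less RNA per cell cannot be told apart.

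Several arrays stood apart within their groups. WT arrays 7, 8 and 9 at 5 weeks had tubule marker means of 7.49, 8.01 and 7.71, below the other WT arrays of that age (8.46 and 8.18) and all 4 KI arrays (8.49 to 8.88). WT array 15 at 44 weeks had the highest tubule mean of all, 9.14. WT array 1 at 2 weeks had a podocyte marker mean of 10.06, where the other 3 WT arrays of that age had 9.66 to 9.75, and a parietal cell marker mean of 8.43 against 8.85 to 8.89.

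**Figure D1:**
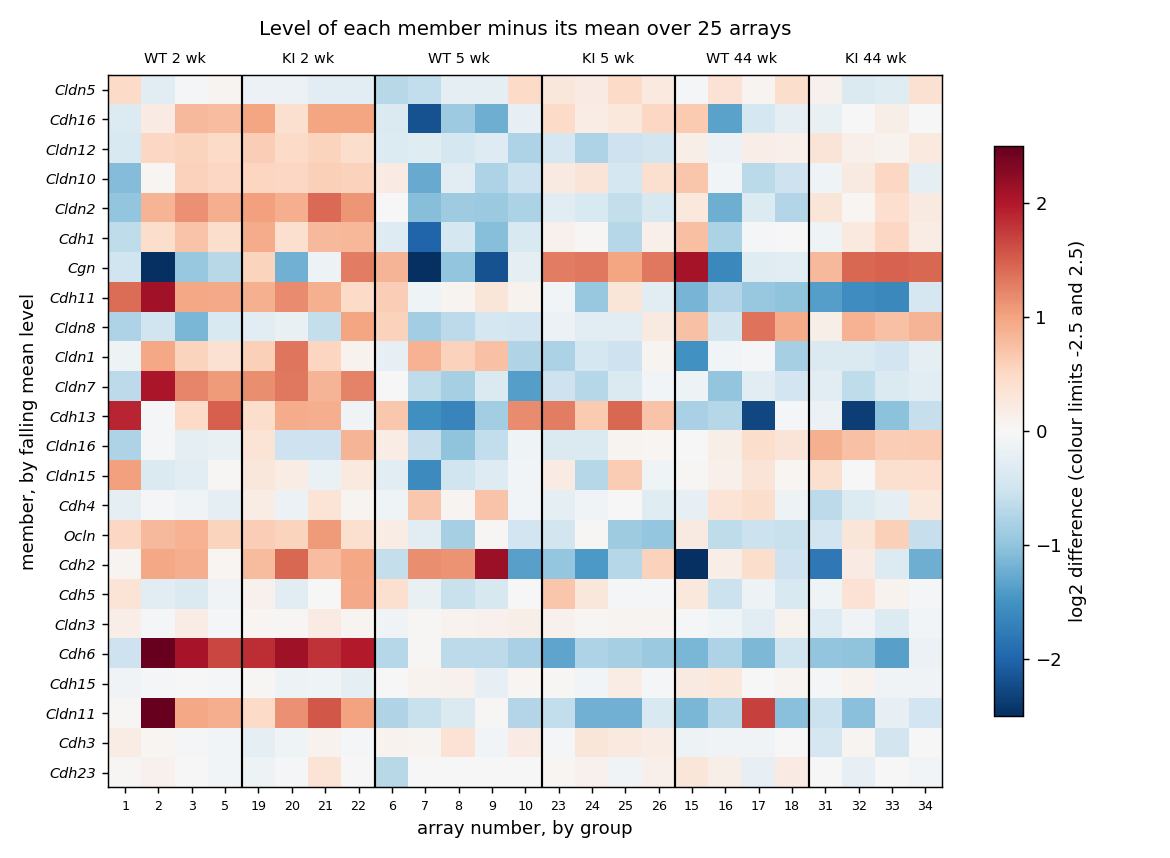
Level of each of the 24 tested members on each of the 25 arrays (columns, grouped by genotype and age and labelled by array number) minus that member's mean over all arrays, in log2; rows are ordered by falling mean level and colours stop at 2.5 above or below. Cdh6 is red on every 2-week array except WT array 1, where it was 4.30, and Cgn is bluest on WT arrays 2, 7 and 9.

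The upstream sequence is shown for some members that had a promoter entry, chosen with their values known. These were Cgn and Cldn5, higher in KI at 5 weeks, and Cdh6, high at 2 weeks and below the limit for dim genes later. Cldn2, Cldn7, Cldn11, Cldn12 and Ocln, which fell in both genotypes from 2 to 5 weeks, also had an entry and are not shown. Each line gives the 250 bases before the most upstream RefSeq start (GRCm38.p6), 5′ to 3′ on the strand of the gene. Cgn lies on the minus strand at chr3:94786483-94786732, Cldn5 on the plus strand at chr16:18776597-18776846 and Cdh6 on the minus strand at chr15:13173676-13173925. Capitals mark matches, on either strand, to any of the 6 motifs listed after the sequences.
Cgn: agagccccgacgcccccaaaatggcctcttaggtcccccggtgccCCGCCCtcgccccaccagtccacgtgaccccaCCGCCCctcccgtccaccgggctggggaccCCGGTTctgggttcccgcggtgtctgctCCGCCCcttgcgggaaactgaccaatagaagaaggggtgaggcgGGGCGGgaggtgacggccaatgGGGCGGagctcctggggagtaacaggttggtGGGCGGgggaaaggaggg
Cldn5: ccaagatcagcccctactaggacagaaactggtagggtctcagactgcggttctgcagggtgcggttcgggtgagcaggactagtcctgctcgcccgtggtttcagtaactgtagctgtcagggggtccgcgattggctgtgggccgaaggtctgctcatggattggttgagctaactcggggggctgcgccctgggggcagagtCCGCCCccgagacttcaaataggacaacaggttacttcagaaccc
Cdh6: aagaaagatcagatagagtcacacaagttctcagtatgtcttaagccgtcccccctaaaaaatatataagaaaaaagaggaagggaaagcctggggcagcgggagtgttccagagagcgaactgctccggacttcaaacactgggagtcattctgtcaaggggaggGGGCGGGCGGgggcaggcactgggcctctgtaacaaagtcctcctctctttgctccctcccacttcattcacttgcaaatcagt

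The motifs, chosen with the values of the members already known, were the GC box GGGCGG, the core AACCGG of grainyhead-like sites, the E-box CAGGTG, the HNF1-type core GTTAAT, the GATA-type AGATAA and the TATA box TATAAA. The Cgn window held 6 GC boxes and 1 AACCGG match, which begins at position -143 from the start as CCGGTT. The Cldn5 window held 1 GC box, and the Cdh6 window 2 that share bases. Of 28 members with an entry, 13 held a GC box, against 33.0% of the windows of 27025 genes, and 2 (Cgn and the dim Cdh20) held AACCGG, against 5.56%. CAGGTG was in 3 of the 28 (17.1% of all windows), GTTAAT in 4 (6.54%), AGATAA in 2 (10.2%) and TATAAA in 1, Cldn2 (13.0%). GC made up 70.4% of the Cgn window, 59.6% of that of Cldn5 and 51.2% of that of Cdh6, beside a median of 52.0% over all genes.

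The first comparison asked how KI differed from WT at each age. At 5 weeks 3 of the 24 members were higher in KI, namely Cgn, Cdh16 and Cldn5, and 0 were lower, by limma with Benjamini-Hochberg adjustment over all 11968 genes tested. Among all genes 14.3% were called higher and 7.75% lower at that age, so the members' share of higher calls was close to the background. At 2 weeks 0 members were called and 0.0% of all genes, and 0 members had an unadjusted p under 0.05 (613 of all genes did). No member had groups free of overlap at 2 weeks, beside 2.9% of all genes. At 44 weeks 0 members were called against 0.0251% of all genes, and 1 member, Cldn2, had an unadjusted p under 0.05 (762 of all genes did). The differences were above 0 in 17, 16 and 14 of 24 members at 2, 5 and 44 weeks, with medians of 0.231, 0.2 and 0.046, beside all-gene medians of -0.023, 0.058 and 0.013.

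**Figure D2:**
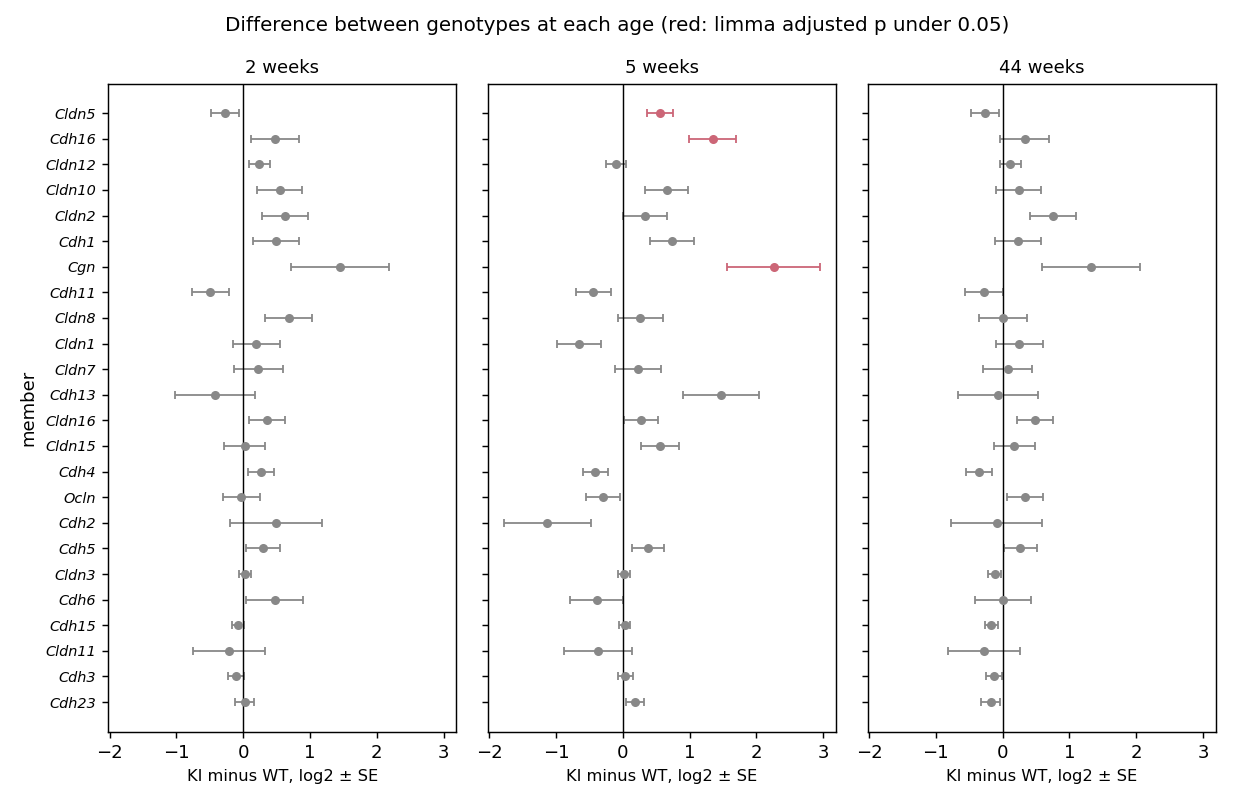
Difference between KI and WT in log2 units with its standard error from limma, for each tested member at 2, 5 and 44 weeks; red points passed at an adjusted p under 0.05. Cgn, Cdh16 and Cldn5 are red at 5 weeks, and no member is red at the other ages.

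Cgn encodes cingulin, a cytoplasmic tight junction protein that binds actin and myosin and the zonula occludens proteins. At 2 weeks WT arrays 1, 2, 3 and 5 read 8.13, 5.48, 7.69 and 7.93 and the KI arrays 9.19, 7.43, 8.50 and 9.91. At 5 weeks WT arrays 6 to 10 read 9.48, 6.02, 7.64, 6.46 and 8.41 and the KI arrays 9.92, 9.95, 9.61 and 9.95. At 44 weeks the WT arrays read 10.71, 7.02, 8.34 and 8.34 and the KI arrays 9.43, 10.07, 10.11 and 10.08. The groups did not overlap at 5 weeks, as was true of 12% of all genes, and overlapped at the other ages, where a single array (KI array 20, WT array 15) crossed into the other group. WT arrays spread widely at every age (SD 1.23, 1.41 and 1.53), whereas KI arrays at 5 and 44 weeks did not (SD 0.16 and 0.33).

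In the fit Cgn was 2.26 ± 0.69 (SE) log2 higher in KI at 5 weeks (limma adjusted p = 0.0256), and the differences of 1.45 ± 0.73 at 2 weeks and 1.32 ± 0.73 at 44 weeks did not pass (adjusted p = 0.893 and 0.828). Leaving out 1 array gave 0.84 (without WT array 2) to 1.89 (without KI array 20) at 2 weeks and 0.80 (without WT array 16) to 2.02 (without WT array 15) at 44 weeks. Averaged over the ages, Cgn was 1.68 ± 0.41 higher (adjusted p = 0.0294). The 3 arrays with the lowest Cgn (WT 2, 7 and 9) had tubule means of 7.66, 7.49 and 7.71. The array with the highest Cgn, WT 15, had the highest tubule mean. These arrays were picked for their Cgn level, and the part of tubule RNA in the Cgn difference was not tested. At 5 weeks it cannot be told apart from genotype, as the tubule means of WT and KI did not overlap. With the tubule mean of each array in the fit the Cgn difference was -0.12 at 5 weeks and -0.013 on average (adjusted p = 0.905 and 0.998), and with the endothelial mean it was 0.35 and 0.44 (adjusted p = 0.767 and 0.69). Without WT arrays 7, 8 and 9 the 5-week difference was 0.91 (adjusted p = 0.658), and the 5-week call was lost in 5 of 9 fits that left out 1 array (WT 7 or 9, KI 23, 24 or 26; up to adjusted p = 0.0819) and the average call in 9 of 25.

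Cdh16, the kidney-specific cadherin of tubule cells, was 1.34 ± 0.35 (SE) log2 higher in KI than in WT at 5 weeks (limma adjusted p = 0.0113). WT arrays 6 to 10 read 9.93, 8.11, 9.37, 9.07 and 10.08, all below the KI arrays at 10.78, 10.48, 10.55 and 10.81. At 2 weeks WT read 9.95, 10.48, 11.10 and 11.07 and KI 11.28, 10.69, 11.27 and 11.27. At 44 weeks WT read 10.94, 8.96, 9.85 and 10.05 and KI 10.10, 10.29, 10.44 and 10.29. The groups overlapped at 2 and 44 weeks, where the differences of 0.48 and 0.33 did not pass (adjusted p = 0.903 and 0.947). Leaving out 1 array gave 0.24 (without WT array 1) to 0.63 (without WT array 3) at 2 weeks and -0.002 (without WT array 16) to 0.66 (without WT array 15) at 44 weeks. Over the ages Cdh16 was 0.72 ± 0.21 higher in KI (adjusted p = 0.0474), and that call was lost in 19 of 25 fits that left out 1 array, whereas the 5-week call was kept in all 9 such fits of its own groups. With the tubule mean in the fit the 5-week difference was 0.27 and the average -0.044 (adjusted p = 0.66 and 0.998). With the endothelial mean the 5-week difference was 0.67 (adjusted p = 0.343), and without WT arrays 7, 8 and 9 the 5-week difference was 0.65 (adjusted p = 0.476).

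Cldn5, the main claudin of endothelial tight junctions and one that podocytes also make, changed least of the 3. At 5 weeks WT read 10.32, 10.40, 10.77, 10.79 and 11.48 and KI 11.30, 11.21, 11.49 and 11.25. The 4 KI arrays lay above all WT arrays except array 10. The difference was 0.56 ± 0.20 (SE) log2 (limma adjusted p = 0.0437), and it lost the call in 8 of 9 fits that left out 1 array of either group (up to adjusted p = 0.122), keeping it only without WT array 10.

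At 2 weeks Cldn5 read 11.49, 10.75, 10.98 and 11.08 in WT and 10.86, 10.86, 10.74 and 10.74 in KI. At 44 weeks it read 10.99, 11.37, 11.08 and 11.46 in WT and 11.13, 10.64, 10.71 and 11.38 in KI. The groups overlapped at both ages and the differences, -0.28 and -0.26, had the opposite sign to that at 5 weeks. Tested directly, the genotype difference was 0.84 ± 0.28 larger at 5 than at 2 weeks and -0.82 ± 0.28 from 5 to 44 weeks (adjusted p = 0.138 for each). The 5-week difference of Cldn5 was 0.64 with the tubule mean in the fit and 0.54 with the endothelial mean, and passed in neither (adjusted p = 0.206 and 0.247).

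**Figure D3:**
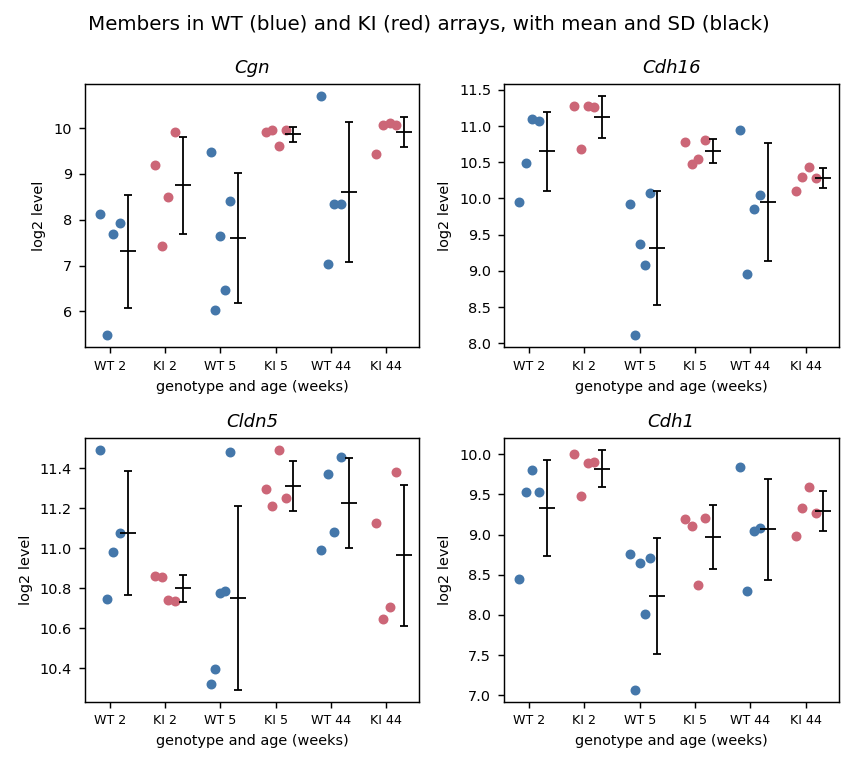
Log2 level of Cgn, Cdh16, Cldn5 and Cdh1 on each array, by genotype and age in weeks (WT blue, KI red), with the group mean and SD in black beside the points; the vertical axes differ and do not start at 0. At 5 weeks the KI points of Cgn and Cdh16 lie above all WT points, and those of Cldn5 lie above all but WT array 10 at 11.48.

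Cdh1, E-cadherin, the classical cadherin of epithelial adherens junctions, did not pass at any age. At 2 weeks Cdh1 read 8.45, 9.53, 9.80 and 9.53 in WT and 10.00, 9.48, 9.89 and 9.91 in KI. At 5 weeks Cdh1 read 8.76, 7.07, 8.64, 8.01 and 8.71 in WT and 9.20, 9.11, 8.38 and 9.20 in KI. At 44 weeks Cdh1 read 9.84, 8.29, 9.04 and 9.08 in WT and 8.98, 9.33, 9.59 and 9.26 in KI. The groups overlapped each time, and the largest difference was 0.73 ± 0.33 at 5 weeks (limma unadjusted p = 0.037, adjusted p = 0.11), where WT array 7 was lowest.

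**Figure D4:**
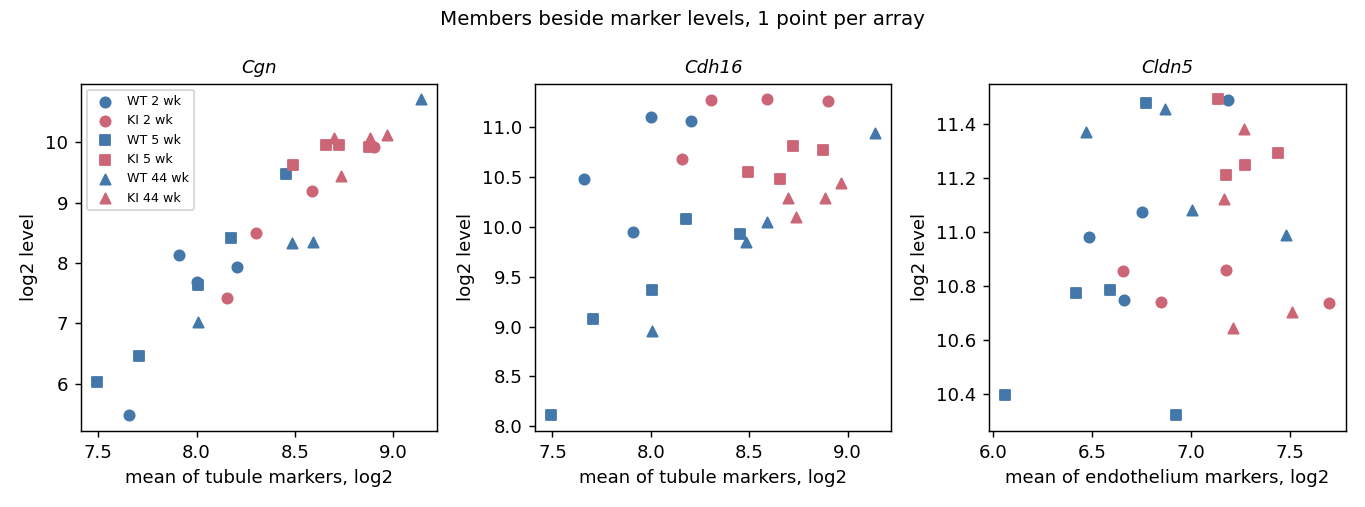
Log2 level of Cgn and Cdh16 against the mean of the 55 tubule markers, and of Cldn5 against the mean of the 23 endothelial markers, 1 point per array (WT blue, KI red; circles 2, squares 5 and triangles 44 weeks). WT arrays 7 and 9 are at the low end of both axes for Cgn and Cdh16, and WT array 15 is at the top for Cgn (10.71).

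Among the pore-forming claudins, Cldn10 makes anion or cation pores depending on its first exon, and the probe set used here was not tied to either form. It read 8.53, 9.68, 10.19 and 10.13 in WT and 10.16, 10.14, 10.22 and 10.20 in KI at 2 weeks. At 5 weeks Cldn10 read 9.83, 8.36, 9.34, 8.84 and 9.09 in WT and 9.84, 9.95, 9.19 and 10.02 in KI. At 44 weeks Cldn10 read 10.32, 9.54, 8.94 and 9.11 in WT and 9.51, 9.84, 10.14 and 9.39 in KI. The groups overlapped at each age, and no difference passed (0.55, 0.66 and 0.24; lowest limma adjusted p = 0.14). Cldn2, the cation and water pore of the proximal tubule, was 0.76 ± 0.34 higher in KI at 44 weeks before adjustment (limma adjusted p = 0.756), and Cldn16, a thick ascending limb claudin whose loss wastes magnesium, was the single member whose groups did not overlap at 44 weeks (0.49 ± 0.26, adjusted p = 0.822; 2.74% of all genes did not overlap).

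Besides the 3 called members and Cdh1, Cdh13 and Cdh4 had an unadjusted p under 0.05 at 5 weeks by limma. In all, 6 of the 24 members had such a p, a smaller share than the 4463 of 11968 among all genes. Cdh13, T-cadherin, which is anchored by a lipid rather than a membrane span, differed by 1.47 ± 0.57 (limma adjusted p = 0.0667). Cdh4, R-cadherin, differed by -0.41 ± 0.19 (limma adjusted p = 0.113). Cdh13 was low on WT arrays 7, 8 and 9 (5.26, 5.15 and 5.93) and 7.46 and 7.98 on arrays 6 and 10, within or near the KI range of 7.46 to 8.24. Cdh2, N-cadherin, went the other way on the same 3 WT arrays: it read 6.66, 6.62 and 7.63 there, 4.89 and 4.14 on arrays 6 and 10, and 4.52, 4.06, 4.78 and 6.07 in KI (-1.13 ± 0.65, adjusted p = 0.207). Cldn1, the barrier claudin also found in parietal epithelial cells, read 8.26, 7.96 and 8.13 on WT arrays 7, 8 and 9, 7.20 and 6.64 on 6 and 10, and 6.61 to 7.47 in KI (-0.66 ± 0.33, adjusted p = 0.154).

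No member's genotype difference was shown to change with age. For the difference at 5 minus 2 weeks 0 of 24 members passed (0.0251% of all genes), for 44 minus 5 weeks 0 (0.0% of all genes) and for 44 minus 2 weeks 0 (0.0%). Unadjusted p-values lay under 0.05 for 3, 1 and 1 members by limma, and for 2242, 2335 and 359 of all genes. Averaged over the ages, 2 members (Cgn and Cdh16) were higher in KI and 0 lower, where 3.99% and 1.33% of all genes were called. The genotype comparisons at the single ages share no arrays with each other, but each shares its arrays with the age comparisons that follow.

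The second comparison asked how the members changed with age within each genotype. From 2 to 5 weeks 9 of 24 members fell in WT, where 21.7% of all genes did, and 8 fell in KI, where 8.29% of all genes did. In either genotype 0 rose, beside 12.2% and 5.4% of all genes, and 1 member, Cgn, had a positive difference above 1 (KI, 1.10) that did not pass. The members' median change was -0.432 in WT and -0.35 in KI, beside all-gene medians of -0.059 and 0.017. Cdh6, Cdh11, Cldn2, Cldn7, Cldn11, Cldn12 and Ocln fell in both genotypes, 7 members or 77.8% of the WT calls and 87.5% of the KI calls, from arrays that the 2 comparisons do not share. Among all genes 714 (5.97%) were called lower in both, or 27.5% of the WT calls and 72% of the KI calls. Cdh6 and Cldn11 lay above the limit for dim genes only in the 2-week groups, with all 4 later group means below it, so that a fall was built into their being tested; without them 5 members were called lower in both. Cdh1 and Cdh16 were called in WT and Cldn1 in KI. The arrays of the 2 ages did not overlap for 3 members in WT (16.7% of all genes) and for 12 in KI (25.2%).

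Cdh6, K-cadherin, marks the early epithelium of the developing nephron. At 2 weeks Cdh6 read 4.30, 7.53, 6.89 and 6.49 in WT and 6.68, 6.94, 6.64 and 6.82 in KI. At 5 weeks Cdh6 read 4.11, 4.86, 4.18, 4.17 and 4.02 in WT and 3.51, 4.07, 4.00 and 3.91 in KI. At 44 weeks Cdh6 read 3.68, 4.07, 3.71 and 4.32 in WT and 3.85, 3.82, 3.47 and 4.68 in KI. Every 2-week array except WT array 1 lay above every later one. The later group means (4.27 and 3.87 at 5 weeks, 3.95 and 3.96 at 44 weeks, WT and KI) were below the limit for dim genes, so Cdh6 was tested only through its 2-week values and its change is a description. It was -2.03 ± 0.40 (SE) log2 in WT and -2.90 ± 0.42 in KI (limma adjusted p = 0.000654 and 0.000187), and without WT array 1 the WT change was -2.70. The gene's other probe set fell less, by -0.52 and -0.62.

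Cldn7, a claudin of the distal nephron and collecting duct, fell in both genotypes (-1.56 ± 0.35 log2 in WT and -1.56 ± 0.36 in KI, limma adjusted p = 0.00177 and 0.00706). At 2 weeks Cldn7 read 6.39, 9.07, 8.26 and 8.10 in WT and 8.20, 8.35, 7.89 and 8.28 in KI. At 5 weeks Cldn7 read 7.04, 6.41, 6.22, 6.68 and 5.66 in WT and 6.52, 6.33, 6.67 and 6.96 in KI. At 44 weeks Cldn7 read 6.91, 6.05, 6.77 and 6.56 in WT and 6.76, 6.41, 6.69 and 6.76 in KI. Once more array 1 was the only 2-week array inside the later range.

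Cldn11, known from the tight junctions of myelin and Sertoli cells, also passed the limit for dim genes only through its 2-week groups: later group means were 4.29 and 3.92 at 5 weeks and 4.47 and 4.20 at 44 weeks (WT and KI). Its change to 5 weeks, -1.73 ± 0.51 log2 in WT and -1.90 ± 0.54 in KI (limma adjusted p = 0.012 and 0.0223), is likewise a description. At 2 weeks Cldn11 read 4.80, 7.90, 5.73 and 5.68 in WT and 5.24, 5.91, 6.32 and 5.78 in KI. At 5 weeks Cldn11 read 4.02, 4.21, 4.40, 4.80 and 4.04 in WT and 4.15, 3.57, 3.57 and 4.39 in KI. At 44 weeks Cldn11 read 3.62, 4.05, 6.48 and 3.73 in WT, where array 17 stood alone, and 4.24, 3.71, 4.56 and 4.29 in KI. The WT call was lost without array 2, the highest (-1.11, adjusted p = 0.0685), and the KI call in 4 of 8 fits that left out 1 array.

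Cldn2 read 8.50, 10.34, 10.63 and 10.40 in WT and 10.51, 10.39, 10.90 and 10.58 in KI at 2 weeks. At 5 weeks Cldn2 read 9.46, 8.42, 8.59, 8.54 and 8.69 in WT and 9.20, 9.10, 8.89 and 9.09 in KI. At 44 weeks Cldn2 read 9.74, 8.25, 9.13 and 8.75 in WT and 9.77, 9.53, 9.89 and 9.70 in KI. Here too WT array 1 was alone among the 2-week arrays in reading below 10. The fall to 5 weeks was -1.22 ± 0.33 in WT and -1.53 ± 0.34 in KI (limma adjusted p = 0.00644 and 0.00544).

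Cldn12, a claudin without the usual PDZ-binding tail, fell to 5 weeks and then rose in both genotypes. At 2 weeks Cldn12 read 9.49, 10.39, 10.44 and 10.35 in WT and 10.51, 10.36, 10.45 and 10.33 in KI. At 5 weeks Cldn12 read 9.54, 9.57, 9.45, 9.56 and 9.12 in WT and 9.46, 9.10, 9.36 and 9.42 in KI. At 44 weeks Cldn12 read 10.03, 9.74, 10.05 and 10.01 in WT and 10.20, 10.02, 9.97 and 10.13 in KI. The 5-week arrays lay below all 44-week arrays and, apart from WT array 1, below all 2-week arrays. The steps were -0.72 ± 0.15 and 0.51 ± 0.15 in WT (limma adjusted p = 0.00103 and 0.0209) and -1.07 ± 0.16 and 0.74 ± 0.16 in KI (adjusted p = 0.000205 and 0.00369). A second probe set of Cldn12 had the same signs (-0.54 and 0.38 in WT, -1.11 and 0.64 in KI), and the WT rise was lost in 3 of 9 fits that left out 1 array.

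**Figure D5:**
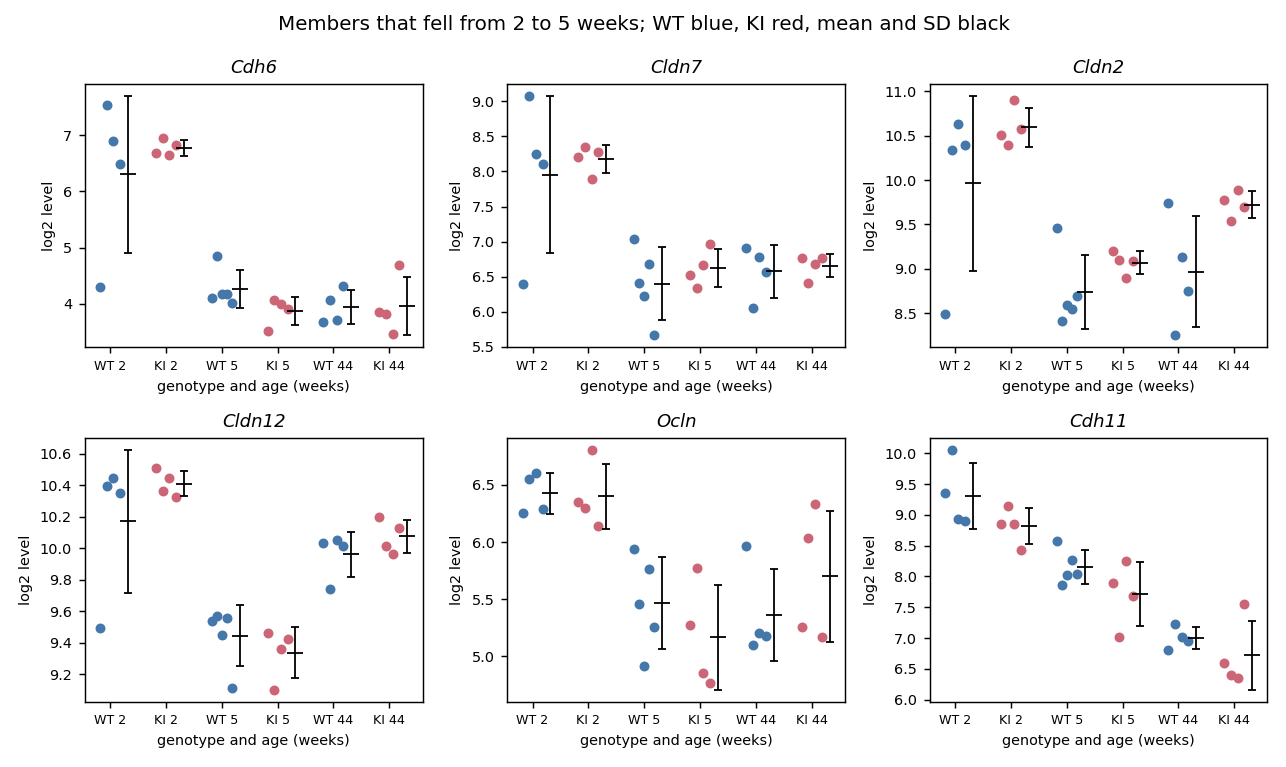
Log2 level of 6 members that fell from 2 to 5 weeks in both genotypes, on each array by genotype and age in weeks (WT blue, KI red; group mean and SD in black); the vertical axes differ and do not start at 0. The lone low WT point at 2 weeks in Cdh6, Cldn7, Cldn2 and Cldn12 is array 1, Cldn12 is higher again at 44 weeks, and Cdh11 is lower at each later age.

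Ocln, the first tight junction membrane protein to be described, fell by 0.96 ± 0.26 log2 in WT and by 1.23 ± 0.27 in KI from 2 to 5 weeks (limma adjusted p = 0.00667 and 0.00475). At 2 weeks Ocln read 6.26, 6.55, 6.61 and 6.29 in WT and 6.35, 6.30, 6.81 and 6.14 in KI. At 5 weeks Ocln read 5.94, 5.46, 4.91, 5.76 and 5.26 in WT and 5.27, 5.77, 4.85 and 4.77 in KI. At 44 weeks Ocln read 5.96, 5.10, 5.21 and 5.18 in WT and 5.26, 6.04, 6.33 and 5.17 in KI. The 2-week and 5-week arrays did not overlap in either genotype, array 1 included, whereas 2 KI arrays at 44 weeks were above 6.

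Cdh11, the cadherin of mesenchymal cells, fell at each step in both genotypes. At 2 weeks Cdh11 read 9.35, 10.05, 8.94 and 8.90 in WT and 8.86, 9.14, 8.85 and 8.43 in KI. At 5 weeks Cdh11 read 8.57, 7.86, 8.03, 8.26 and 8.05 in WT and 7.90, 7.02, 8.26 and 7.68 in KI. At 44 weeks Cdh11 read 6.80, 7.24, 7.01 and 6.95 in WT and 6.59, 6.40, 6.35 and 7.55 in KI. Between successive ages of a genotype, only the KI arrays at 5 and 44 weeks overlapped. The falls from 2 to 5 weeks were -1.16 ± 0.26 and -1.11 ± 0.28 in WT and KI, and those from 5 to 44 weeks -1.15 ± 0.26 and -0.99 ± 0.28 (limma adjusted p = 0.00213, 0.0106, 0.00487 and 0.0194), with the KI step after 5 weeks lost in 4 of 8 fits that left out 1 array. The mean of 15 mesangial and smooth muscle markers was also lower at later ages, 8.90, 7.99 and 7.60 in WT and 8.85, 8.56 and 7.88 in KI, and its part in the Cdh11 result was not tested.

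Cdh16 and Cdh1 were lower at 5 than at 2 weeks in WT by limma (-1.34 ± 0.35, adjusted p = 0.00547, and -1.09 ± 0.33, adjusted p = 0.0142). In KI the changes were -0.47 and -0.85 and did not pass. Without WT arrays 7, 8 and 9 the WT change of Cdh16 was -0.65 (adjusted p = 0.281), and 3 of the 9 falling members stayed called, Cdh6 and Cldn7 among them, with 8.28% of all genes called in either direction. With the tubule mean in the fit all 9 WT and all 8 KI calls were kept, and the count rose to 10 in each. The share of all genes called in that fit is not given here.

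From 5 to 44 weeks 2 members rose and 1 fell in WT (11.3% and 8.85% of all genes), and 2 rose and 3 fell in KI (8.11% and 8.64%). Besides Cldn12 and Cdh11, which were called in both, the risers were Cldn8 in WT and Cldn16 in KI, and the others that fell were Cdh13 and Cdh3 in KI. Median changes of the members, 0.177 in WT and 0.002 in KI, lay beside all-gene medians of 0.053 and -0.005. The ages did not overlap for 3 members in WT (12.1% of all genes) and for 6 in KI (25.8%).

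Cldn8, which anchors the claudin seal of the collecting duct, read 8.18, 6.73, 6.94, 7.15 and 7.11 in WT at 5 weeks and 8.33, 7.14, 8.95 and 8.52 at 44 weeks. The WT groups overlapped, and the rise of 1.01 ± 0.34 (limma adjusted p = 0.0368) was lost in 6 of 9 fits that left out 1 array and was 0.39 with the tubule mean in the fit (adjusted p = 0.465). In KI it read 7.45, 7.34, 7.33 and 7.81 and then 7.74, 8.46, 8.33 and 8.45, a difference of 0.76 that did not pass. At 2 weeks the readings were 6.82, 7.09, 6.44 and 7.22 in WT and 7.31, 7.40, 7.00 and 8.59 in KI, with array 22 the highest. Loop and distal tubule markers averaged 7.30 and 8.10 in WT at 5 and 44 weeks and 7.92 and 8.07 in KI.

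Cldn16 read 6.57, 5.80, 5.37, 5.76 and 6.28 in WT and 6.02, 6.01, 6.45 and 6.43 in KI at 5 weeks. At 44 weeks Cldn16 read 6.39, 6.53, 6.82 and 6.69 in WT and 7.28, 7.10, 6.99 and 7.01 in KI. KI arrays at 44 weeks lay above every 5-week array. The KI rise was 0.87 ± 0.26 (limma adjusted p = 0.0291), lost in 5 of 8 fits that left out 1 array. At 2 weeks Cldn16 read 5.61, 6.35, 6.13 and 6.19 in WT and 6.73, 5.87, 5.86 and 7.24 in KI.

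Cdh13 fell in KI from 8.08, 7.46, 8.24 and 7.52 at 5 weeks to 6.65, 4.45, 5.77 and 6.21 at 44 weeks, a change of -2.05 ± 0.60 (limma adjusted p = 0.0234) that was lost in 4 of 8 fits that left out 1 array. In WT it read 5.99, 6.09, 4.52 and 6.77 at 44 weeks, and the change of -0.51 did not pass. At 2 weeks Cdh13 read 8.70, 6.77, 7.29 and 8.29 in WT and 7.23, 7.72, 7.70 and 6.71 in KI. Both genotypes were thus lowest at 44 weeks, and the KI groups did not overlap.

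Cdh3, P-cadherin, a classical cadherin that has also been placed at the slit diaphragm, fell in KI by 0.38 ± 0.12 (limma adjusted p = 0.0366), from 4.71, 5.05, 5.00 and 4.95 at 5 weeks to 4.33, 4.82, 4.30 and 4.75 at 44 weeks. Its WT readings were 4.84, 4.83, 5.12, 4.70 and 4.96 and then 4.63, 4.66, 4.66 and 4.76. At 2 weeks Cdh3 read 4.94, 4.80, 4.72 and 4.68 in WT and 4.53, 4.64, 4.84 and 4.71 in KI. All these values were close to the limit for dim genes, the KI groups overlapped, and the call was lost in 5 of 8 fits that left out 1 array.

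The remaining tested members had called changes in none of the comparisons, apart from Cldn1, which fell in KI from 2 to 5 weeks (-1.05 ± 0.35, limma adjusted p = 0.0492). Group means of Cldn1 ran from 6.79 to 8.03, those of Cdh2 from 4.71 to 6.48, and those of the intestinal-type pore Cldn15 from 5.42 to 6.27. Cdh5, the VE-cadherin of endothelial adherens junctions, ran from 5.22 to 5.65, and R-cadherin Cdh4 from 5.51 to 6.01. Cldn3 (4.71 to 5.01), the muscle cadherin Cdh15 (4.70 to 4.95) and the hair cell tip link cadherin Cdh23 (4.54 to 4.78) stayed near the limit. Cdh23, at a mean of 4.67, was the member just inside the limit and Cdh8, at 4.58, the one just outside.

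The other 17 members were dim. Mean levels over the 25 arrays were, among the cadherins, Cdh8 4.58, Cdh22 4.49, Cdh20 4.36, Cdh26 3.79, Cdh10 3.72, Cdh7 3.17, Cdh17 3.15 and Cdh9 2.74 (log2). Among the claudins they were Cldn14 4.51, Cldn22 4.45, Cldn6 4.31, Cldn13 4.21, Cldn19 4.14, Cldn18 4.08, Cldn9 3.66, Cldn4 3.60 and Cldn23 3.21. Their values ran from 2.5 to 7.73 on single arrays, and in 14 of the 17 the 6 group means lay within 0.5 of each other. The highest single value came from Cldn6, a claudin of embryonic epithelia, on WT array 2 at 2 weeks (7.73), where the other arrays of that group read 4.13, 4.13 and 4.61. That array was also the highest of its group for Cldn11, Cldn7, Cdh6 and Cdh11. Of the 15 members with more than 1 probe set, Cdh11 and Cdh13 had second probe sets with the same signs for the called steps (Cdh11 -0.80 and -0.33 from 2 to 5 weeks and -1.41 and -2.22 after, WT and KI; Cdh13 -1.34 in KI after 5 weeks), whereas others changed less than the one used. The second probe set of Cldn2 changed by -0.33 in WT and -0.70 in KI from 2 to 5 weeks, where the first changed by -1.22 and -1.53. That of Cldn1 changed by -0.42 in KI (first -1.05), and that of Cdh3 by -0.13 in KI from 5 to 44 weeks (first -0.38). The second probe set of Cdh2 changed by -0.36 in KI from 2 to 5 weeks where the first changed by -1.63. For Cdh4 the second probe set, dim at a mean of 3.82, had the opposite sign between genotypes at 5 weeks (0.196, first -0.414).

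Other junction genes were taken from a list of adaptors, polarity proteins, nectins, catenins and regulators, of which 61 were tested. At 5 weeks 8 were higher and 5 lower in KI (13.1% and 8.2%, beside 14.3% and 7.75% of all genes), at 2 and 44 weeks 0 in each direction, and on average over the ages 3 higher and 1 lower (4.9% and 1.6%, beside 3.99% and 1.33%). These shares were close to those of all genes. The 5-week genes with the smallest p were Wnk4, a distal tubule kinase that acts on salt transport (1.16 ± 0.22, limma adjusted p = 0.00268), and Camsap3, which binds microtubule minus ends (1.21 ± 0.25, adjusted p = 0.00366). Next came Lsr, of tricellular junctions (1.04 ± 0.23, adjusted p = 0.00579), and Snai1, a repressor of Cdh1 (1.09 ± 0.25, adjusted p = 0.00622). The Snai1 mean at 5 weeks was 4.49 in WT, below the limit for dim genes, and 5.58 in KI. Cgnl1, the cingulin paralogue, was also higher (1.33 ± 0.41, adjusted p = 0.0277), and Tjp1, the adaptor ZO-1 that binds claudins, was lower (-0.28 ± 0.10, adjusted p = 0.0438).

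Averaged over the ages by limma, Wnk4 (0.73, adjusted p = 0.013), Lsr (0.54, adjusted p = 0.0338) and Cgnl1 (0.91, adjusted p = 0.0376) were higher in KI. Marveld2, the tricellular junction protein tricellulin, was lower (-0.39, adjusted p = 0.0473). At 2 weeks the smallest p-values belonged to Wnk4 (0.65), Arvcf (-0.53), Igsf5 (0.57) and Nectin4 (-0.56), all with an adjusted p of 0.893, and at 44 weeks to Marveld2 (-0.58), Sympk (-0.43), Jam2 (0.63) and Esam (0.58), with adjusted p from 0.695 to 0.757. Esam is also one of the endothelial markers. From 2 to 5 weeks 9 rose and 12 fell in WT (14.8% and 19.7%, beside 12.2% and 21.7% of all genes), and 5 rose and 6 fell in KI (8.2% and 9.8%, beside 5.4% and 8.29%). From 5 to 44 weeks 9 rose and 7 fell in WT (14.8% and 11.5%, beside 11.3% and 8.85%), and 5 rose and 3 fell in KI (8.2% and 4.9%, beside 8.11% and 8.64%). The median change of these partners from 2 to 5 weeks was 0.021 in WT and -0.106 in KI.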

How the data were processed

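The log2 expression values of 25 arrays were used as the authors deposited them; the background correction, normalization and summary method are not given in the sources used here. Per the labels, polysomal RNA was amplified with a NuGen kit. Of 45141 probe sets, 28898 had 1 gene symbol in the platform annotation, 551 had several and 15692 (104 of them controls) had none here. Each gene was read on its probe set with the highest mean, and the lowest 30% of the 17097 genes (limit 4.60) were left out, so that 11968 genes were tested.

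The 6 groups were fitted together with limma 3.58.1 in R 4.3.3 (19 residual degrees of freedom), with contrasts between genotypes at each age and averaged, between ages within a genotype, and between genotype differences; p-values were adjusted by Benjamini-Hochberg over all genes tested, and a gene was called at an adjusted p under 0.05. Lists of cell markers were compared by exact permutation of arrays. A test used simulated data with the mean and spread of each gene taken from these arrays, independent noise and 200 changed genes of the 11968. There limma recovered 83% of 2-fold changes between genotypes at 5 weeks, 75% at 2 weeks and 73% at 44 weeks. The simulation held no shifts shared by many genes of an array, such as those of the tubule markers, so these rates may be too high for the members. The number of arrays limits the precision. Every member is named; values on every array are given for members called between genotypes, the 3 claudins and 3 cadherins with the highest mean, Ocln, Cgn, Cldn5 and Cdh1, and for the 4 called members with the largest change each way in an age comparison; single-array values of other members, and which arrays stood apart, were chosen after the values were seen. The 4 junction partners with the smallest p in each genotype comparison are named, and Tjp1 was added after its value was seen. The members and lists were chosen with earlier results of these data known. Alternatives were the normalization, the filter, the probe sets, the prior, array weights, marker and Y-linked covariates, fits to only the arrays compared and arrays left out; the endothelial covariate was added after seeing the data. Promoter windows came from RefSeq (GRCm38.p6).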

Additional observations from a re-analysis of the deposited data

Results flagged for a closer look

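In 96 groups of 4 or 5 arrays, for the 16 members given array by array, 13 single values stood far from the rest of their group by Dixon's criterion at the 95% level; chance alone marks about 1 in 20 groups. WT array 1 at 2 weeks was the low value for Cldn12 (9.49) and Cldn2 (8.50). In the WT groups at 5 weeks the lone values were Cldn12 low on array 10 (9.12), Cldn2 high on array 6 (9.46) and Cdh6 high on array 7 (4.86). In WT at 44 weeks they were Cldn12 low on array 16 (9.74), Ocln high on array 15 (5.96) and Cldn11 high on array 17 (6.48). Cgn was low on WT array 2 at 2 weeks (5.48), on KI array 25 at 5 weeks (9.61) and on KI array 31 at 44 weeks (9.43). Cdh16 was low on KI array 20 at 2 weeks (10.69), and Cdh1 on KI array 25 at 5 weeks (8.38). Without array weights and with all arrays, 0 of the 24 members passed in limma for a difference between genotype effects at 2 ages.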

How the results depend on the processing

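No paired analysis was possible because no number in the sample titles is shared between groups. The KI against WT counts at 2 weeks (0 members), at 44 weeks (0) and the difference of genotype effects between 44 and 2 weeks (0) were the same under the alternatives run, except that array weights gave 1 at 44 weeks. At 5 weeks the 3 called members became 10 with array weights and 0 in a fit to only the arrays compared, with the tubule or the endothelial marker covariate, or without WT arrays 7, 8 and 9; leaving out 1 array gave 1 to 5. Averaged over ages, 2 became 8 with array weights, 1 with quantile normalization or no filter, and 0 with the tubule or the endothelial covariate or without WT arrays 7, 8 and 9; leaving out 1 array gave 0 to 5, the 5 without WT array 15. With the tubule covariate 3 called values changed sign: Cgn at 5 weeks (-0.12), Cgn averaged (-0.013) and Cdh16 averaged (-0.044), as did the uncalled Cgn at 2 weeks (-0.353) and Cdh16 at 2 and 44 weeks (-0.335 and -0.067). For WT from 2 to 5 weeks 9 became 3 without WT arrays 7, 8 and 9. From 5 to 44 weeks in WT, 3 became 8 with array weights, 5 with no filter, 1 with only the arrays compared or without arrays 7, 8 and 9, and 0 with the tubule covariate; leaving out 1 array gave 1 to 6, the 6 without array 10. In KI the 50% filter on dim genes left 5 of 8 from 2 to 5 weeks and 3 of 5 from 5 to 44 weeks. The others (Ocln, Cdh6 and Cldn11, then Cldn16 and Cdh3) were dropped by that filter and so not tested. Array weights gave 8 in KI from 5 to 44 weeks. Leaving out 1 array gave 5 to 8 from 2 to 5 weeks and 1 to 6 from 5 to 44 weeks. Array weights called 6 and 3 members for the differences of genotype effects at 5 minus 2 and 44 minus 5 weeks, where leaving out 1 array gave 0 to 1, the 1 without WT array 10 each time. Apart from the members dropped by the 50% filter, the causes were not tested. Shares of all genes called under these alternatives are not given here. The counts therefore do not show whether the members moved more than other genes. With a covariate for Y-linked messages the genotype counts were 0, 3, 0 and 2 at 2, 5 and 44 weeks and averaged, as without it. Members near the limit of dim genes, such as Cdh3, Cdh23 and Cldn3, were read close to background.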
